A study of Mus musculus with 12 samples.

Results

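Polycomb repressive complex 2 (PRC2) was described here through the messenger RNA of 10 genes, the catalytic subunits Ezh1 and Ezh2, the core subunits Suz12, Eed, Rbbp4 and Rbbp7, and the accessory subunits Jarid2, Mtf2, Phf19 and Phf1. The members were taken by name from the deposited expression table. All 10 were found among its 23309 genes, and all 10 were among the 11516 genes tested, those that reached 1 FPKM in 2 or more of the 12 libraries. The libraries came from mouse bone marrow CD117+ progenitors transduced with a retrovirus for ER-HoxB8, a HoxB8 protein fused to the estrogen receptor that keeps cells immature for as long as estradiol (E2) is present. Wild-type (WT) cultures and HMGN1-OE cultures, from mice with a human HMGN1 transgene on the C57BL/6 background, were sampled at 0, 36 and 96 h after E2 was withdrawn, with interleukin 3 in the medium. There were 2 libraries in each of the 6 groups, the wild-type mice were littermates, and every group carried ER-HoxB8, which limits the cultures as a model of unmodified progenitors. RNA of the human transgene was not analysed here.

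PRC2 places methyl groups on lysine K27 of histone H3, and the trimethylated mark is associated with silenced genes. EZH2 or EZH1 carries the methyltransferase activity, SUZ12 and EED are needed for it, and RBBP4 and RBBP7 are histone-binding proteins that also belong to other chromatin complexes. EZH2 is typical of dividing cells, whereas EZH1 is also found in cells that have stopped dividing. JARID2 defines a different form of the complex from that defined by the Polycomb-like proteins MTF2, PHF19 and PHF1, and in blood the complex is known for its role in progenitors and for mutations of its subunits in leukemia.

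The promoters are shown because E2F factors are textbook regulators of genes of dividing cells and the data below follow cells that leave the progenitor state. RefSeq windows of GRCm38.p6, each of 300 bases from 250 before to 50 after a gene's start, were found for all 10 members, 12 windows in all. Each window was searched on both strands for the E2F letters TTTCCCGC, TTTCGCGC, TTTGCCGC and TTTGGCGC and for the cell-cycle homology region (CHR) letters TTTGAA. An E2F sequence lay in 3 of the 12 windows, those of Ezh2, Suz12 and Phf19, against 2.26% of all 32851 windows and 4.01% of the windows of tested genes. Stretches of 30 bases on the strand of the gene follow, with the matched letters in capitals. The match starts 4 bases after the start in Ezh2, and in Phf19 it reads on the opposite strand.
Ezh2: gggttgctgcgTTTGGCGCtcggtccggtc
Suz12: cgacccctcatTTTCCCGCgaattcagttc
Phf19: gtcaataattcGCGGGAAAacgcgaaaaag
The CHR letters lay in 3 windows, those of Mtf2, Eed and Suz12, against 17.89% of all windows and 11.92% of the windows of tested genes, and they did not overlap an E2F match. Eed holds a pair of matches, the second of which, like the match in Suz12, reads on the opposite strand. These matches are letters in a window and no binding was measured.
Mtf2: ccttagtgacaTTTGAAgacccaggactga
Eed: agcctatagatTTTGAAtctctcccttcaa
Eed, second match: gaatctctcccTTCAAAaaaagaatctagg
Suz12: cgcgaattcagTTCAAAgaggcgtccgggc

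Values were FPKM that the authors had normalized to synthetic ERCC RNAs added to the RNA extracted from a fixed number of cells, so that a change in RNA recovered per cell stays in them. The sum of FPKM per library ran from 228955 to 1442573 and was lowest at 96 h. The depth is unknown. The 96 h wild-type libraries stood apart from each other, with sums of 449750 and 228955. So did the 0 h libraries, with 680258 and 1268121 in wild-type and 1054061 and 704399 in HMGN1-OE cultures. Granulocyte markers (9 of the 10 chosen were listed) summed to between 1121 and 2916 FPKM at 0 h in both genotypes, and at 96 h to between 65520 and 93620 FPKM in wild-type and between 119300 and 171300 FPKM in HMGN1-OE libraries. Although the sum was higher, 6 of the 9 had a lower mean in HMGN1-OE than in wild-type libraries at 96 h (median log2 difference -0.20), and 7 of the 9 relative to the library median. The 8 progenitor markers, among them Kit, Cd34 and Mpo, summed at 0 h to between 8169 and 16390 FPKM in wild-type and between 5676 and 8196 FPKM in HMGN1-OE libraries. At 96 h they summed to between 124.1 and 693.2 FPKM in wild-type and between 810.2 and 2336 FPKM in HMGN1-OE libraries. At 36 h the granulocyte markers summed to between 922.1 and 1972 FPKM in wild-type and between 170.5 and 523.6 FPKM in HMGN1-OE libraries. The 6 mast cell, basophil and eosinophil markers summed to between 410.2 and 818.5 FPKM at 0 h in both genotypes, and at 96 h to between 1214 and 2467 in wild-type and between 299.1 and 919.8 in HMGN1-OE libraries. The 6 monocyte markers went from between 170.9 and 1018 to between 417.9 and 756 FPKM in wild-type and from between 71.4 and 177.3 to between 779.1 and 1354 in HMGN1-OE libraries. The erythroid and megakaryocyte markers (5 of 7 passed the filter) went from between 20.8 and 23.1 to between 8.997 and 14.7 FPKM in wild-type and from between 17.9 and 76.85 to between 2.70 and 7.48 FPKM in HMGN1-OE libraries. Of the lymphoid markers 1 of 5 and of the stromal markers 0 of 4 passed the filter. Fewer cells of a type and less RNA per cell cannot be told apart in such bulk libraries. The part of these shifts in cell markers in the changes over time and between genotypes below was not tested.

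The members differed widely in level, given in FPKM, a scale per length of transcript. The order by group mean was Rbbp7, Rbbp4, Suz12, Ezh2, Mtf2, Eed, Jarid2, Ezh1, Phf19 and Phf1, and it was identical at 0 and 36 h in both genotypes. In wild-type cells at 0 h, mean FPKM was 349 for Rbbp7, 132 for Rbbp4, 88.5 for Suz12 and 68.6 for Ezh2. The lower-expressed members had means of 14.97 FPKM for Jarid2, 11.7 for Ezh1, 7.65 for Phf19 and 3.69 for Phf1. The libraries of Rbbp4 and Suz12, of Suz12 and Ezh2, of Ezh2 and Mtf2, of Mtf2 and Eed, of Jarid2 and Ezh1, and of Ezh1 and Phf19 overlapped in this group in FPKM, so these neighbours did not differ beyond the spread of FPKM between libraries. Both within each library and relative to the library median (a scale explained below) all 10 stood in this order without overlap. Against all tested genes, over the 12 libraries, Rbbp7 stood at percentile 95.1 of mean log2 expression and Ezh2 at 80.5, whereas Ezh1 stood at 38.8 and Phf1 at 22.3.

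**Figure D1:**
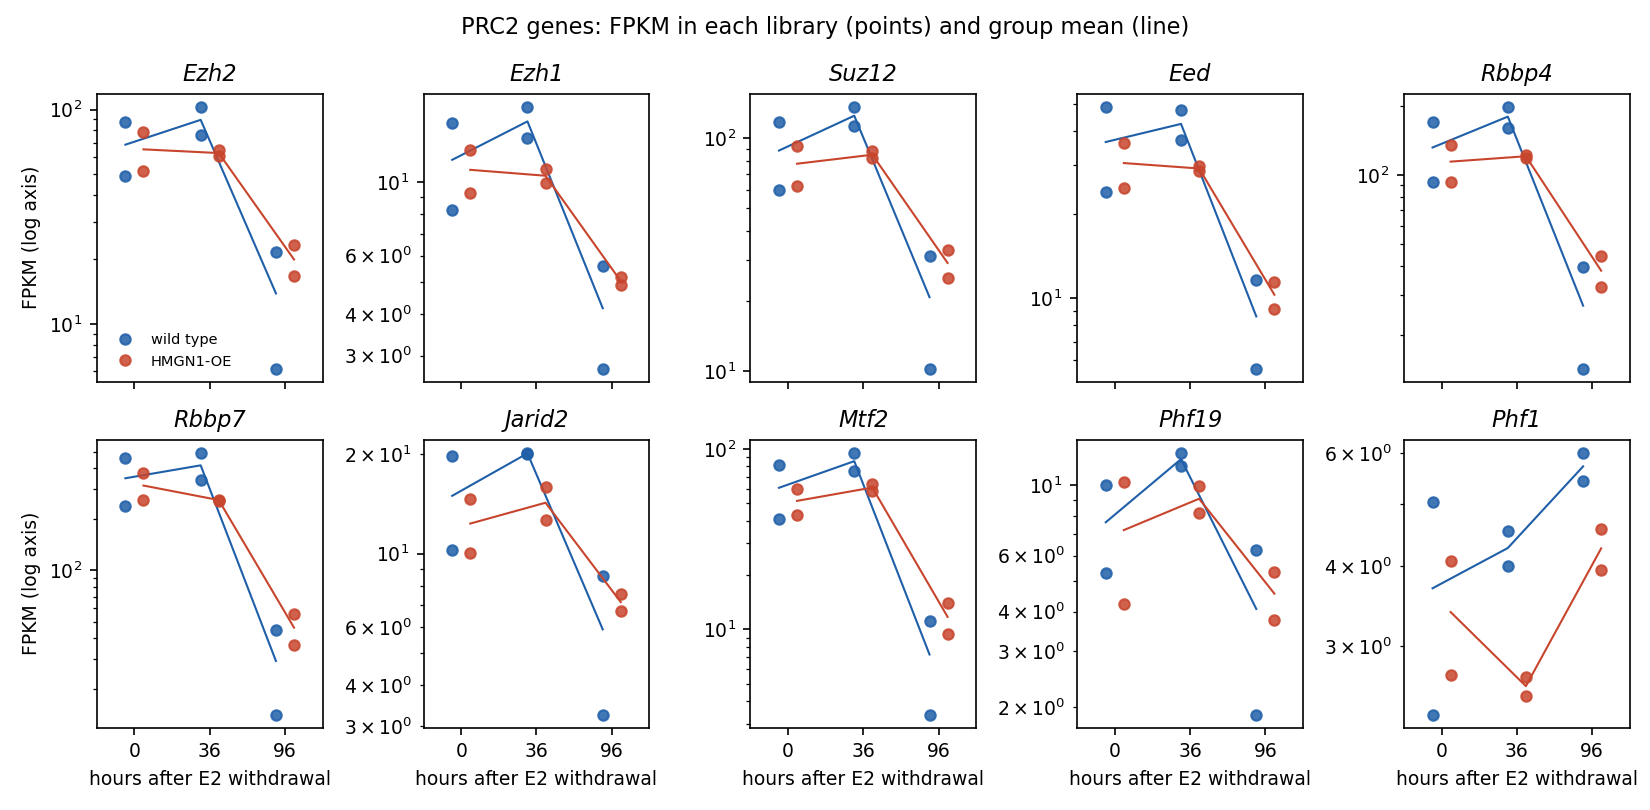
FPKM (log axis, a range of its own in each panel) of the 10 PRC2 genes at 0, 36 and 96 h after E2 withdrawal, with time points spaced evenly. Points are single libraries (2 per group) and lines join group means. All members except Phf1 had their lowest group mean at 96 h, and Phf1, between 2.35 and 6.004 FPKM in all libraries, did not.

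The first comparison asks how PRC2 genes changed as the cultures matured after E2 withdrawal. From 0 to 96 h, 8 of 10 members fell in wild-type cells and 6 of 10 in HMGN1-OE cultures on the spike-in scale, and none was called higher. These counts stand beside 81.5% of all tested genes called in wild-type and 67.5% in HMGN1-OE cultures (77.2% and 62.4% called lower), so a fall as such was shared by most genes. The median log2 fold change of the members was -2.05 in wild-type and -1.42 in HMGN1-OE cultures, beside -1.75 and -1.28 for all tested genes. Libraries at 96 h lay wholly below those at 0 h for 8 members in each genotype and wholly above for 1 member, Phf1, in wild-type cells. Of all tested genes, 80.9% and 82.8% were wholly below in wild-type and HMGN1-OE cells, and 4.84% were wholly above in wild-type cells. A fit with a library left out has 1 library in a group. Over time, counts of called members from such fits are given without the share of all tested genes. They show how far calls rest on single libraries, not how the members stand against other genes. Without the 96 h wild-type library of the lower sum, 6 members were called in wild-type cells, and Ezh1 and Jarid2 were not. Without the 0 h wild-type library of the higher sum, Phf1 was called higher and 6 members lower. Without the 0 h HMGN1-OE library of the higher sum, or without the 96 h HMGN1-OE library of the lower sum, 2 members were called in HMGN1-OE cultures.

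To describe each gene against the rest of its library, each library's median of log2(FPKM + 1) over tested genes was subtracted from it. The median gap between the 2 libraries of a group was 0.47 over members and groups on the log2(FPKM + 1) scale and 0.09 after this step, so most of the spread between libraries was a shift of whole libraries. At 96 h in wild-type cells the gap was 1.37 before and 0.48 after this step, the widest of the 6 groups on both scales, where the others lay between 0.0411 and 0.15 after it. On this relative scale the members parted in both genotypes. Ezh1, Jarid2, Phf19 and Phf1 rose relative to the library median in both. Rbbp7 and Mtf2 fell relative to it in both, and Ezh2 and Rbbp4 fell in wild-type cells. In all, 4 members were called higher and 4 lower in wild-type cells, beside 36.5% and 33.8% of all tested genes (70.3% in either direction). In HMGN1-OE cells 4 were called higher and 2 lower, beside 30.9% and 32.5% of all tested genes (63.4% in either direction), so the share of members that moved was near the background. With either of the 96 h wild-type libraries left out, 4 were called higher and 4 lower in HMGN1-OE cultures, with Ezh2 and Rbbp4 added. The calls of the 4 that rose held in wild-type cells with each library left out in turn. In HMGN1-OE cultures Ezh1 was not called without the 0 h library of the higher sum (adjusted p = 0.12) or the 96 h library of the lower sum (adjusted p = 0.15), both HMGN1-OE, and Phf19 was not called without the other 0 h HMGN1-OE library (adjusted p = 0.051). With a library left out, the relative count ran from 7 to 9 members in wild-type and from 5 to 8 in HMGN1-OE cultures. Whether Ezh2 or Rbbp4 differed between genotypes in this change is the interaction given below, which was not called.

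**Figure D2:**
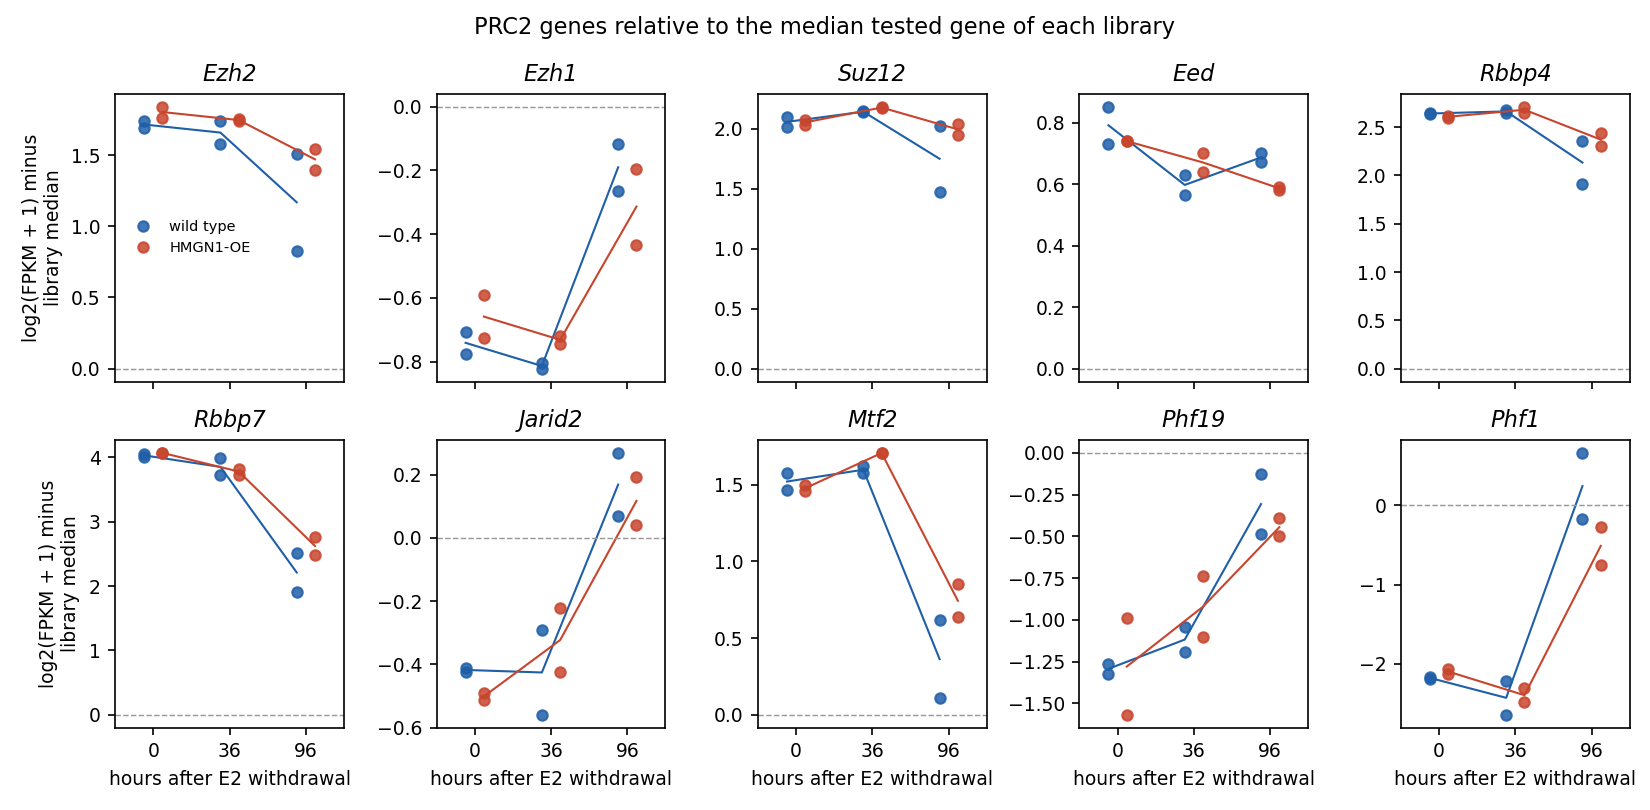
log2(FPKM + 1) of each PRC2 gene minus the median tested gene of the same library, by hours after E2 withdrawal, with time points spaced evenly and a range of its own in each panel. Points are single libraries, lines join group means, and the dashed line at 0 is the library median. Rbbp7 and Mtf2 come down at 96 h while Ezh1, Jarid2, Phf19 and Phf1 go up, and Eed stays between 0.57 and 0.85.

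Both catalytic subunits had lower FPKM at 96 h than at 0 h. Ezh2, the methyltransferase of dividing cells, had 49.3 and 88.0 FPKM in the wild-type libraries at 0 h, 75.9 and 103 at 36 h, and 21.6 and 6.19 at 96 h. In HMGN1-OE libraries it had 78.8 and 51.7 FPKM at 0 h, 64.7 and 60.7 at 36 h, and 16.7 and 23.3 at 96 h. The 4 libraries at 96 h were the 4 lowest, and the wild-type library of the lower sum was the lowest of all. Mean FPKM was 4.95-fold lower at 96 h than at 0 h in wild-type cells and 3.26-fold lower in HMGN1-OE cultures. The wild-type fold was 3.18 with the 96 h library of the higher sum alone and 11.1 with the other alone. Ezh2 fell with a log2 fold change of -2.39 ± 0.54 (SE, adjusted p = 2.82e-05) in wild-type and -1.64 ± 0.54 (adjusted p = 0.0054) in HMGN1-OE cultures. Its change relative to the library median was -0.55 ± 0.18 (adjusted p = 0.025) in wild-type cells and -0.33 ± 0.18 (adjusted p = 0.14) in HMGN1-OE cultures. The wild-type call was lost without the 96 h library of the lower sum, where the relative change of Ezh2 was -0.20 (adjusted p = 0.12), and without either of the 0 h wild-type libraries (-0.52, adjusted p = 0.087, and -0.57, adjusted p = 0.070).

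Ezh1, the alternative methyltransferase, had 8.23 and 15.1 FPKM in wild-type libraries at 0 h, 13.6 and 16.9 at 36 h, and 5.59 and 2.74 at 96 h. The HMGN1-OE libraries had 12.5 and 9.30 FPKM at 0 h, 10.99 and 9.91 at 36 h, and 4.89 and 5.16 at 96 h. Again all libraries at 96 h were below all others, with mean FPKM 2.80-fold lower in wild-type (2.09 with the 96 h library of the higher sum alone and 4.26 with the other) and 2.17-fold lower in HMGN1-OE cultures. On the spike-in scale Ezh1 fell in wild-type cells (log2 fold change -1.30 ± 0.47 SE, adjusted p = 0.0088), and in HMGN1-OE cultures the change was -0.97 ± 0.47 (adjusted p = 0.059). Ezh1 rose relative to the library median, by 0.55 ± 0.11 (adjusted p = 0.0015) in wild-type and 0.34 ± 0.11 (adjusted p = 0.020) in HMGN1-OE cultures. Its libraries moved from between -0.77 and -0.59 at 0 h to between -0.43 and -0.12 at 96 h on that scale, without overlap in either genotype.

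Among the core subunits, Rbbp7 changed most. It had 241 and 457 FPKM in wild-type libraries at 0 h, 339 and 493 at 36 h, and 44.5 and 14.1 at 96 h. The HMGN1-OE libraries held 373 and 259.9 FPKM at 0 h, 261 and 258 at 36 h, and 36.6 and 55.6 at 96 h. Mean FPKM was 11.9-fold lower in wild-type and 6.87-fold lower in HMGN1-OE cultures at 96 h than at 0 h (wild-type folds of 7.85 and 24.7 with the 96 h library of the higher and of the lower sum alone), and no library at 96 h came near the range of the earlier times. Rbbp7 fell by 3.67 ± 0.58 (SE, adjusted p = 3.14e-09) on the log2 scale in wild-type cells, and fell by 2.76 ± 0.58 (adjusted p = 1.52e-05) in HMGN1-OE cultures, and relative to the library median by 1.82 ± 0.19 (adjusted p = 4.23e-05) and by 1.45 ± 0.19 (adjusted p = 2.17e-04). In wild-type cells, 4.3% of tested genes had a lower change than Rbbp7, and in HMGN1-OE cultures 6.3%.

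Its paralog Rbbp4 had 93.3 and 170.4 FPKM in wild-type libraries at 0 h, 161 and 199 at 36 h, and 39.5 and 14.3 at 96 h. In HMGN1-OE libraries the values were 136 and 92.9, then 123 and 119, then 32.3 and 44.1 FPKM. The fall of Rbbp4 at 96 h was 4.91-fold in mean FPKM in wild-type and 2.99-fold in HMGN1-OE cultures (adjusted p = 7.24e-05 and 0.012 on the spike-in scale), beside 11.9-fold and 6.87-fold for Rbbp7. With 1 wild-type library of 96 h alone the fall of Rbbp4 was 3.34-fold (higher sum) or 9.24-fold (lower sum). Against its library median Rbbp4 fell by 0.51 ± 0.13 (adjusted p = 0.0074) in wild-type cells (-0.29, adjusted p = 0.023, without the 96 h library of the lower sum), and in HMGN1-OE cultures the change was -0.24 ± 0.13 (adjusted p = 0.14).

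Suz12 and Eed, both required for the enzyme's activity, stayed closest to the library median change. Suz12 had 60.0 and 117 FPKM in wild-type libraries at 0 h, 113 and 137 at 36 h, and 31.3 and 10.2 at 96 h. HMGN1-OE libraries had 92.9 and 62.5, then 87.8 and 82.1, then 25.0 and 33.2 FPKM. Eed had 24.0 and 48.8, then 37.1 and 47.4, then 11.6 and 5.60 FPKM in wild-type libraries, and 36.2 and 24.9, then 29.8 and 28.7, then 9.17 and 11.4 FPKM in HMGN1-OE libraries. Both genes had their 4 lowest libraries at 96 h. On the spike-in scale Suz12 fell by 2.15 (adjusted p = 2.07e-04) and Eed by 1.95 (adjusted p = 3.32e-04) in wild-type cells, and Suz12 by 1.37 (adjusted p = 0.022) and Eed by 1.47 (adjusted p = 0.0093) in HMGN1-OE cultures, all on the log2 scale. The relative changes were not called with all libraries. Those of Suz12 were -0.31 ± 0.15 (adjusted p = 0.097) in wild-type and -0.06 ± 0.15 (adjusted p = 0.75) in HMGN1-OE cultures, and those of Eed were -0.10 ± 0.08 (adjusted p = 0.24) and -0.15 ± 0.08 (adjusted p = 0.11). The wild-type value of Suz12 was -0.03 (adjusted p = 0.76) without the 96 h library of the lower sum and -0.59 (adjusted p = 5.14e-04) without the other.

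Of the accessory subunits, Mtf2, a Polycomb-like protein that helps to bring the complex to CpG islands, was the only one of the 4 to fall relative to the library median. It had 40.7 and 81.1 FPKM in wild-type libraries at 0 h, 75.8 and 95.1 at 36 h, and 11.2 and 3.37 at 96 h. The HMGN1-OE libraries had 60.2 and 42.9 FPKM at 0 h, 63.5 and 58.6 at 36 h, and 9.48 and 14.0 at 96 h. The mean was 8.38-fold lower in wild-type and 4.39-fold lower in HMGN1-OE cultures (wild-type folds of 5.46 and 18.1 with the 96 h library of the higher and of the lower sum alone), with no library at 96 h within reach of the earlier ones. On the log2 scale Mtf2 fell by 3.00 ± 0.53 (adjusted p = 1.09e-07) in wild-type and by 2.05 ± 0.53 (adjusted p = 4.70e-04) in HMGN1-OE cultures, and relative to the library median by 1.16 ± 0.15 (adjusted p = 1.38e-04) and by 0.73 ± 0.15 (adjusted p = 0.0024).

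Jarid2, which marks the other form of the complex, had 10.2 and 19.7 FPKM in wild-type libraries at 0 h, 20.1 and 20.2 at 36 h, and 8.54 and 3.25 at 96 h. In HMGN1-OE libraries it had 14.6 and 10.1, then 15.9 and 12.6, then 6.71 and 7.56 FPKM. The 96 h libraries were again lowest, and the log2 change on the spike-in scale was -1.26 ± 0.49 (adjusted p = 0.013) in wild-type and -0.69 ± 0.49 (adjusted p = 0.19) in HMGN1-OE cultures. Jarid2 rose against the library median by 0.59 ± 0.12 (adjusted p = 0.0023) in wild-type and 0.62 ± 0.12 (adjusted p = 0.0020) in HMGN1-OE cultures.

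Phf19, another Polycomb-like protein, was the member whose FPKM at 96 h overlapped that at 0 h in both genotypes. Wild-type libraries had 5.28 and 10.01 FPKM at 0 h, 11.5 and 12.7 at 36 h, and 6.26 and 1.89 at 96 h, and HMGN1-OE libraries had 10.2 and 4.24, then 8.19 and 9.95, then 3.77 and 5.34. Its change on the spike-in scale was not called (-0.86, adjusted p = 0.072, in wild-type and -0.48, adjusted p = 0.34, in HMGN1-OE cultures). Against the library median it rose by 0.99 ± 0.21 (adjusted p = 0.0023) and by 0.83 ± 0.21 (adjusted p = 0.0066).

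Phf1, the third Polycomb-like protein, had the highest relative change of the 10 members in both genotypes. It had 2.35 and 5.04 FPKM in wild-type libraries at 0 h, 4.54 and 3.995 at 36 h, and 6.004 and 5.43 at 96 h. HMGN1-OE libraries held 4.08 and 2.71, then 2.51 and 2.69, then 4.58 and 3.95 FPKM. The wild-type libraries at 96 h lay above those at 0 h, and the HMGN1-OE libraries overlapped. The spike-in scale gave log2 changes of 0.58 ± 0.42 (adjusted p = 0.19) in wild-type and 0.28 ± 0.42 (adjusted p = 0.56) in HMGN1-OE cultures, with 94.8% and 91.5% of tested genes below. Against the library median Phf1 rose by 2.42 ± 0.28 (adjusted p = 6.45e-05) and by 1.59 ± 0.28 (adjusted p = 9.84e-04). In the GENCODE vM21 annotation 39.3% of the exon bases of Phf1 are also exon of Cuta on the opposite strand, and the library kit did not keep the strand, so that reads there could belong to either gene. Cuta had 142 and 285 FPKM in wild-type libraries at 0 h and 60.7 and 25.9 at 96 h, and 224 and 134 FPKM in HMGN1-OE libraries at 0 h and 50.9 and 76.6 at 96 h, lower at 96 h in all libraries where Phf1 was not.

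**Figure D3:**
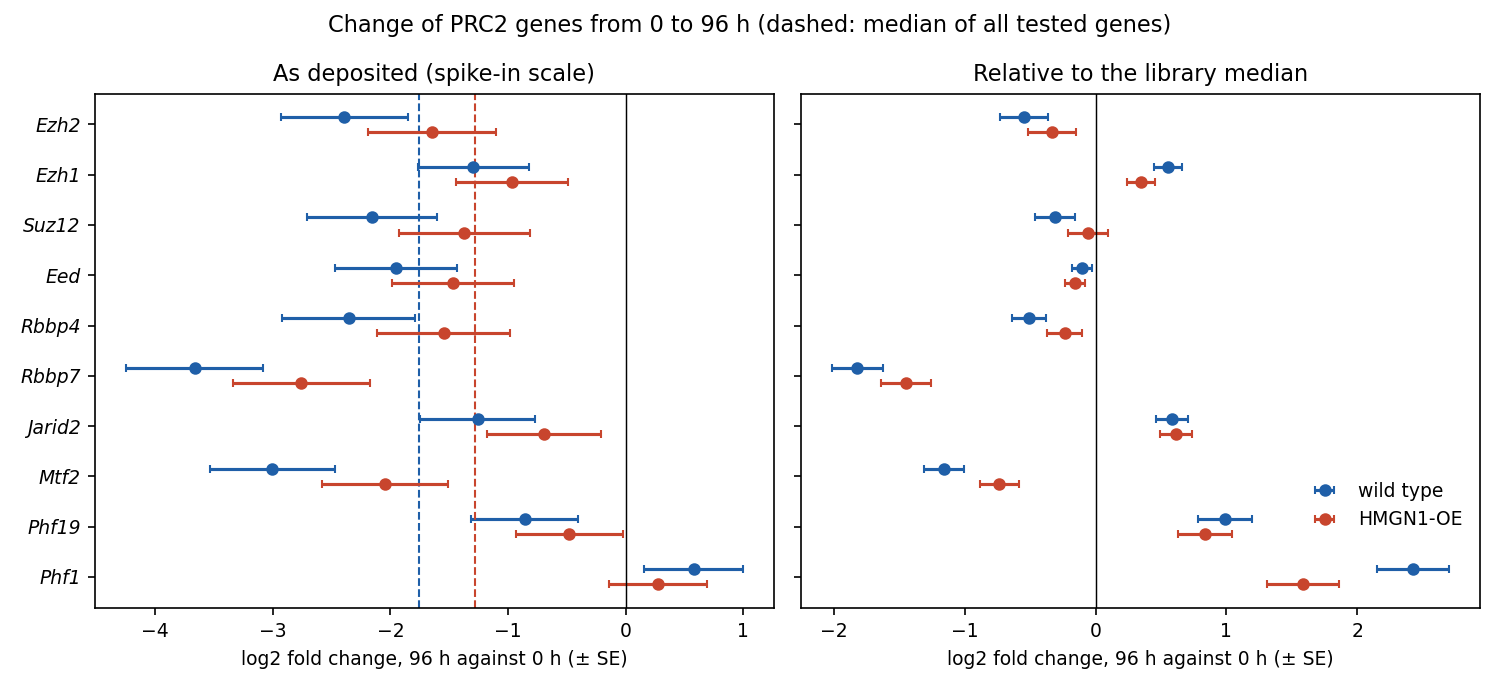
log2 fold change at 96 h against 0 h of the PRC2 genes, on the spike-in scale (left, dashed lines at -1.75 and -1.28 for the median of all tested genes, wild type and HMGN1-OE in that order) and relative to the library median (right). Points are limma estimates and bars their standard errors. Left, every gene but Phf1 is below 0, and right, Rbbp7 and Mtf2 stand at the low end and Phf1 at the high end in both genotypes.

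Exons of other members also overlap genes on the opposite strand in that annotation. Of protein-coding genes, Tmed5 covers 6.93% of the exon bases of Mtf2, Txlng 5.98% of those of Rbbp7 and Sync 8.94% of those of Rbbp4, while Ezh1 has no overlapping gene of any kind. Exons of noncoding genes on the opposite strand overlap those of Ezh2 (Gm26625), Suz12 (Gm26563), Eed (E230029C05Rik), Rbbp4 (Gm26722) and Phf1 (AC144621.3), whose shares were not computed. Sync stayed at or below 0.157 FPKM in all 12 libraries. Ezh1 and Suz12 lie on chromosome 11, Rbbp7 on X, Ezh2 on 6, Eed on 7, Rbbp4 on 4, Jarid2 on 13, Mtf2 on 5, Phf19 on 2 and Phf1 on 17.

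The calls lay between 36 and 96 h. From 0 to 36 h no member was called in wild-type or HMGN1-OE cells, on either scale, where 0.617% and 1.80% of all tested genes were called on the spike-in scale and 0.00868% and 0.130% relative to the library median. By limma 0 members had an unadjusted p under 0.05 on the spike-in scale in either genotype, and relative to the library median 1 had in wild-type cells (Eed, -0.19, 95% interval -0.37 to -0.02) and 0 in HMGN1-OE cultures. The log2 changes of members from 0 to 36 h ran from 0.23 to 0.65 in wild-type cells, where the median gene changed by 0.47, and from -0.27 to 0.39 in HMGN1-OE cultures. The wild-type median was 0.0496 without the 0 h wild-type library of the lower sum and 0.90 without the other. From 36 to 96 h, 9 members fell in wild-type cells, all but Phf1, beside 86.3% of all tested genes called lower and 89.5% in either direction. In HMGN1-OE cells 6 fell (Ezh2, Suz12, Eed, Rbbp4, Rbbp7 and Mtf2), beside 64.9% lower and 69.0% in either direction. That HMGN1-OE count was 2 without the first-listed HMGN1-OE library of 36 h, 3 without the second, and 2 without the 96 h library of the lower sum. On the relative scale, 4 were called higher and 5 lower in wild-type cells, beside 38.2% and 33.7% of all genes (71.9% in either direction). The lower count was 3, without Ezh2 and Suz12, when any single library other than the 96 h wild-type library of the higher sum was left out. In HMGN1-OE cells 3 were called higher and 2 lower, beside 28.6% and 32.3% (61.0% in either direction). This count of 5 was 8 with either of the wild-type libraries of 96 h left out and 3 without the 96 h HMGN1-OE library of the lower sum.

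The members made up a smaller share of the summed FPKM at 96 h, and its composition differed. Their summed FPKM was 0.0776% to 0.0798% of the library total at 0 h, 0.0692% to 0.0782% at 36 h, and 0.0293% to 0.0414% at 96 h. Rbbp7 supplied 45.1% to 46.3% of the members' FPKM at 0 h, 39.2% to 43.7% at 36 h, and 21.1% to 27.3% at 96 h. Rbbp4 went from between 16.6% and 17.5% at 0 h to between 21.2% and 21.7% at 96 h, and Suz12 from between 11.1% and 11.6% to between 15.3% and 16.8%. Ezh2 went from between 8.69% and 9.63% to between 9.22% and 11.6%, with the wild-type library of the lower sum within the 0 h range and the other 96 h libraries above it, while Ezh1 went from between 1.49% and 1.66% to between 2.53% and 4.08%. The share of Phf1 was at most 0.498% at 0 h and lay between 1.94% and 8.09% at 96 h, the upper value in the wild-type library of the lower sum.

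Ratios of 2 members within a library do not depend on a factor shared by all genes of that library. A normalization that varies with level, as the authors' loess fit to the ERCC RNAs can, may still move them. The log2 ratio of Ezh1 to Ezh2 was -2.58 and -2.54 in wild-type libraries at 0 h, -2.48 and -2.61 at 36 h, and -1.95 and -1.17 at 96 h. HMGN1-OE libraries had -2.66 and -2.47, then -2.56 and -2.61, then -1.77 and -2.17. Ezh2 thus exceeded Ezh1 in every library, from 5.56-fold to 6.31-fold at 0 h and from 2.26-fold to 4.50-fold at 96 h. The mean ratio of Ezh1 to Ezh2 was 1.74-fold higher at 96 h than at 0 h (exact permutation test within genotype, two-sided, p = 0.0556, adjusted over 5 ratios p = 0.0694).

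The ratio of Rbbp4 to Rbbp7 was 2.41-fold higher at 96 h, that of Phf1 to Phf19 2.56-fold higher, and that of Mtf2 to Jarid2 3.00-fold lower. Each of these had the same exact permutation p of 0.0556 (adjusted 0.0694), the smallest that 4 against 4 libraries in 2 genotypes can give, and in each the libraries of 0 and 96 h did not overlap. Rbbp7 exceeded Rbbp4 2.58-fold to 2.80-fold at 0 h, and at 96 h their ratio was near 1, from 0.990 to 1.26. Mtf2 exceeded Jarid2 3.97-fold to 4.26-fold at 0 h and 1.04-fold to 1.85-fold at 96 h. The ratio of Suz12 to Eed was between 2.40 and 2.56 at 0 h and between 1.83 and 2.90 at 96 h, the libraries overlapped, and the mean log2 difference was 0.0052 (exact permutation p = 1.0).

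**Figure D4:**
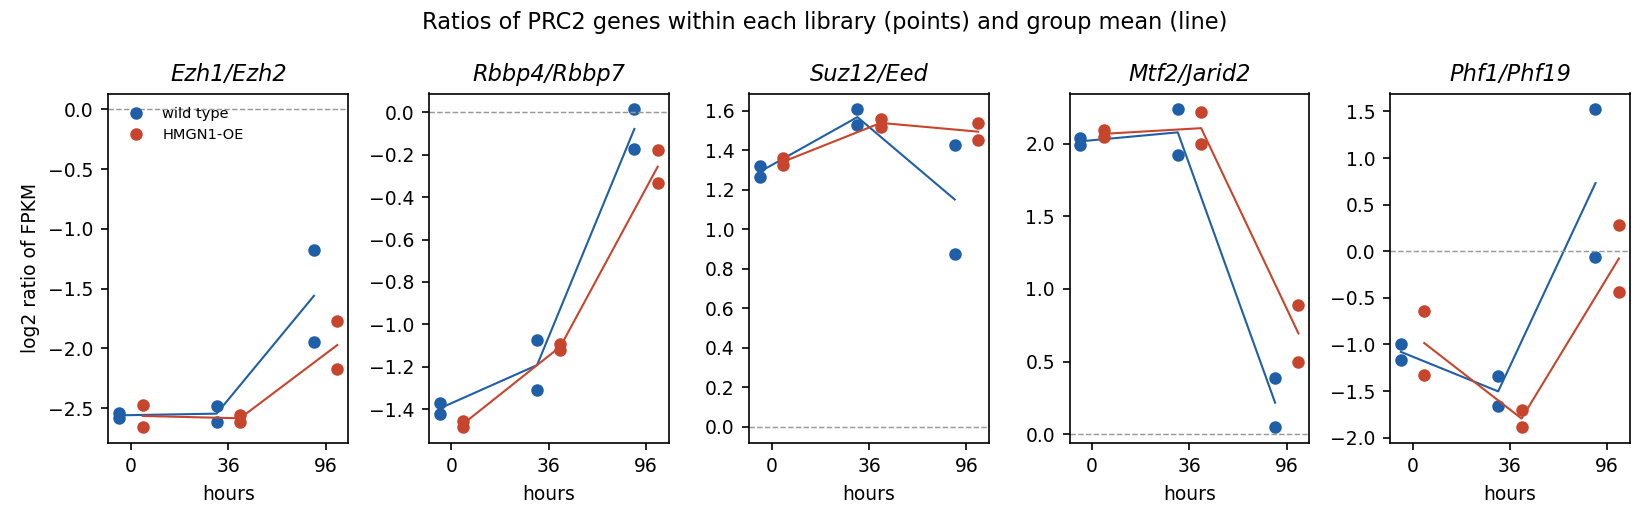
log2 ratios of pairs of PRC2 genes within each library, by hours after E2 withdrawal, with time points spaced evenly and a range of its own in each panel. Points are single libraries, lines join group means, and the dashed line at 0, where it is in range, is an equal FPKM of both genes. At 96 h Ezh1/Ezh2, Rbbp4/Rbbp7 and Phf1/Phf19 are up and Mtf2/Jarid2 is down in all 4 libraries, and Suz12/Eed is not.

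The second comparison asks whether cells with the HMGN1 transgene differed from wild-type cells in these genes. No member was called at 0, 36 or 96 h on the spike-in scale, where 1.36%, 1.26% and 0.669% of all tested genes were called, and none relative to the library median, where 0.104%, 0.0521% and 0.0608% were called. In limma 0 members had an unadjusted p under 0.05 on the spike-in scale at any time, and relative to the library median 0 had at 0 h, 0 at 36 h and 2 at 96 h. The share of all tested genes at that unadjusted p is not given, here or elsewhere. Such counts are therefore no result about the members or the markers. The 95% intervals on the spike-in scale were wide. For Ezh2 they ran from -1.11 to 1.02 at 0 h, from -1.56 to 0.57 at 36 h and from -0.36 to 1.77 at 96 h. They were narrower relative to the library median, -0.33 to 0.51 at 0 h, -0.33 to 0.51 at 36 h and -0.12 to 0.72 at 96 h for Ezh2. For Ezh1 the relative intervals were -0.16 to 0.33 at 0 h, -0.16 to 0.33 at 36 h and -0.37 to 0.12 at 96 h.

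At 36 h all 10 members were lower in both HMGN1-OE libraries than in both wild-type libraries in FPKM, but so were 84.4% of all tested genes. The median difference of the members, -0.50, was close to that of all tested genes, -0.54. On the relative scale 9 members were higher and 1 was lower, with differences between -0.07 and 0.20, and 4 members were higher without overlap, beside 26.0% of all genes. The mean FPKM of Suz12, for example, was 125 in wild-type and 84.9 in HMGN1-OE cultures at 36 h, with a relative difference of 0.03 ± 0.15.

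Cell markers also differed on the spike-in scale. At 0 h 2 of 8 progenitor and 1 of 6 monocyte markers were called lower in HMGN1-OE cultures, and 1 of 5 erythroid and megakaryocyte markers higher. At 36 h 4 of 9 granulocyte, 1 of 6 monocyte and 1 of 6 mast cell, basophil and eosinophil markers were called lower. Of all tested genes, 1.36% and 1.26% were called at these times. At 96 h 3 of 8 progenitor markers were called higher and 0 lower in HMGN1-OE cultures (6 had a higher mean), 1 of 9 granulocyte markers was called higher and 1 lower, and 2 of 6 mast cell, basophil and eosinophil markers were called lower. Against the library median limma called 0 of the markers in these lists, where 5 of the 8 progenitor markers had a higher mean, while 6 progenitor, 3 granulocyte and 3 mast cell, basophil and eosinophil markers were at an unadjusted p under 0.05. At that time 9 members had a higher mean and Phf1 a lower mean in HMGN1-OE cultures on the spike-in scale, where the median member differed by 0.50 and the median gene by 0.36. This direction rested on the wild-type library of the lower sum. Against the other wild-type library alone, 2 members (Rbbp7 and Mtf2) were higher and 8 lower, with a median of -0.13 beside -0.05 for all tested genes, and against the library of the lower sum alone 9 were higher and 1 lower, with a median of 1.14 beside 0.79. Only Phf1 was lower without overlap, at 6.004 and 5.43 FPKM in wild-type and 4.58 and 3.95 in HMGN1-OE libraries, beside 2.97% of all tested genes. Relative to the library median, Mtf2 was higher by 0.38 (95% interval 0.04 to 0.72, unadjusted p = 0.033 in limma, adjusted p = 0.25) and Phf1 lower by 0.76 (interval -1.38 to -0.13, unadjusted p = 0.023 in limma, adjusted p = 0.24), and neither passed the test. Mtf2, Phf1 and Eed were without overlap on that scale, beside 44.3% of all genes. This comparison rested on which wild-type library was used. With the wild-type library of the lower sum alone against both HMGN1-OE libraries, limma called 6 members relative to the library median, Ezh2 (0.64), Suz12 (0.52), Rbbp4 (0.46), Rbbp7 (0.72) and Mtf2 (0.64) higher and Phf1 (-1.18) lower, with 1264 genes called of 11516. With the wild-type library of the higher sum alone, 0 members and 2 genes were called. In these fits the lone library is assumed to vary like the other groups.

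**Figure D5:**
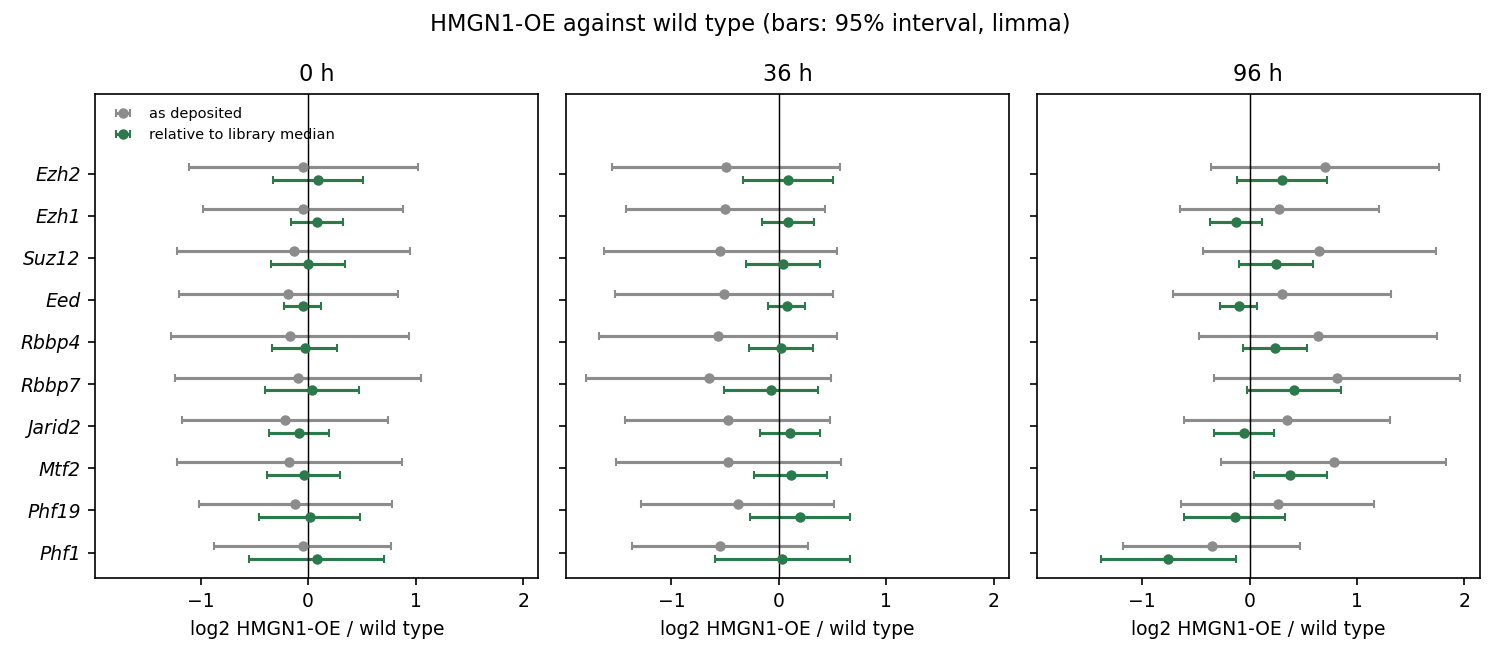
Difference of HMGN1-OE from wild-type cells in each PRC2 gene at 0, 36 and 96 h, as log2 fold change with its 95% interval from limma, on the spike-in scale (grey) and relative to the library median (green). All intervals on the spike-in scale include 0, and relative to the library median those of Mtf2 (0.04 to 0.72) and Phf1 (-1.38 to -0.13) at 96 h do not.

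Whether the change over time itself differed between genotypes was tested as an interaction. No member was called for 0 to 36 h or for 0 to 96 h, on either scale, beside 0.504% and 0.677% of all tested genes on the spike-in scale and 0.0174% and 0.0347% relative to the library median. With limma 0 members had an unadjusted p under 0.05 for the interaction at either time. No difference of the 5 ratios between genotypes over the 3 times passed the test either (exact permutation within time, two-sided, p from 0.139 to 0.398, adjusted p = 0.398, smallest possible p = 0.0093). The largest mean differences in log2 ratio were -0.34 for Phf1 to Phf19 and 0.19 for Mtf2 to Jarid2.

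As a description over the 12 libraries, which share genotype, time and a shift of cell markers, the tested genes whose relative level followed Ezh2 most closely were Mta2 (Pearson r = 0.975), Eri1 (0.974), Rangap1 (0.973), Pold1 (0.971), which encodes the catalytic subunit of DNA polymerase delta, and Rrm1 (0.967), a subunit of ribonucleotide reductase. Rbbp4 ranked 17 of all genes in likeness to Ezh2 (r = 0.951), Suz12 had r = 0.911, Eed r = 0.19 and Ezh1 r = -0.80, and the median of tested genes was -0.20. The relative level of Ezh2 was 0.83 in the 96 h wild-type library of the lower sum and at least 1.39 in every other library. That library therefore weighs most in the likenesses to Ezh2. The genes most like Ezh1 were Tmem140 (0.992), Sp4 (0.990), Bcorl1 (0.989), 4930431P03Rik (0.988) and C330046G13Rik (0.988). Phf1 had r = 0.972 with Ezh1 and Mtf2 had r = -0.96.

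Genes that act with or against PRC2 are given by count from 0 to 96 h. Beside these counts, 77.2% of all tested genes were called lower in wild-type and 62.4% in HMGN1-OE cultures on the spike-in scale, with medians of -1.75 and -1.28, and relative to the library median 36.5% were called higher and 33.8% lower in wild-type and 30.9% and 32.5% in HMGN1-OE cultures. Of 5 further PRC2 subunits, 4 were tested, and from 0 to 96 h 3 fell in wild-type and 2 in HMGN1-OE cultures. Epop, listed as E130012A19Rik and encoding a PRC2-associated protein, fell by 3.36 and 2.71 on the log2 scale, from 15.2 and 24.7 to 1.59 and 0.521 FPKM in wild-type and from 22.8 and 14.5 to 1.14 and 3.04 FPKM in HMGN1-OE libraries (adjusted p = 4.18e-11 and 2.35e-07). Aebp2, a cofactor of the JARID2 form, fell by 2.15 (adjusted p = 1.18e-04) in wild-type and 1.56 (adjusted p = 0.0072) in HMGN1-OE cultures. Relative to the library median, 2 of the 4 rose and 2 fell in wild-type cells, and 2 rose and 1 fell in HMGN1-OE cultures.

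PRC1 is the partner complex that ubiquitinates histone H2A. Of its 27 genes 26 were tested, and 23 fell in wild-type and 21 in HMGN1-OE cultures, with median log2 changes of -1.90 and -1.42. Relative to the library median 7 rose and 10 fell in wild-type cells, and 5 rose and 9 fell in HMGN1-OE cultures. Among the 21 called in both genotypes on the spike-in scale, all of which fell there, the largest changes relative to the library median were those of Pcgf6 (-2.23 in wild-type and -2.09 in HMGN1-OE cultures), of the chromodomain gene Cbx6 (-1.61 and -1.46) and of Bmi1, a PRC1 subunit known for stem cell self-renewal (-1.32 and -1.12). Over all 26 tested genes the relative changes reached 1.70 in wild-type and 1.14 in HMGN1-OE cultures. On the spike-in scale the log2 changes of these 3 were -4.08 and -3.40, -3.45 and -2.78, and -3.16 and -2.43. Bmi1 had 37.4 and 61.9 FPKM in wild-type libraries at 0 h and 7.13 and 2.70 at 96 h.

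A further list joined the demethylases and the acetyltransferases of the marked residue, which counteract the mark, with the BAP1 deubiquitinase and its ASXL partners. The latter act on ubiquitin rather than on the mark. The list held 8 genes, of which 7 were tested. Of these, 4 fell in wild-type and 3 in HMGN1-OE cultures on the spike-in scale, with medians of -1.11 and -0.97. Relative to the library median 5 rose and 1 fell in wild-type and 4 rose and 1 fell in HMGN1-OE cultures. The 3 called in both genotypes on the spike-in scale were the following, whereas relative changes over the 7 tested genes reached 2.70 in wild-type and 1.95 in HMGN1-OE cultures. Bap1 fell by 2.22 and 1.65, the demethylase Kdm6a by 1.56 and 1.17, and Asxl2 by 1.92 and 1.29 on the log2 scale in wild-type and HMGN1-OE cells. Kdm6a and Bap1 stood on opposite sides of the library median change in wild-type cells, at 0.28 (adjusted p = 0.043) and -0.37 (adjusted p = 0.0021).

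Of 30 proliferation genes, all tested, 27 fell and 1 rose in wild-type cells and 15 fell and 1 rose in HMGN1-OE cultures from 0 to 96 h. Of all tested genes 77.2% and 62.4% were called lower. Relative to the library median 5 of the 30 rose and 9 fell in wild-type cells, beside 36.5% and 33.8% of all tested genes. In HMGN1-OE cultures 10 rose and 4 fell, beside 30.9% and 32.5%. The replicative helicase genes Mcm6 and Mcm2 fell by 3.20 and 2.85 in wild-type and by 2.02 and 1.95 in HMGN1-OE cultures, and E2f2 rose by 2.95 and 3.11. At 96 h all 30 had a higher mean in the HMGN1-OE group than in the wild-type group on the spike-in scale, with a median difference of 0.77 beside 0.36 for all tested genes, and 29 of 30 had relative to the library median, with a median of 0.36 beside -0.05. None of these 30 differences passed the test. Against the wild-type library of the higher sum alone 12 of the 30 were higher and 18 lower on the spike-in scale (median -0.0535), and 17 were higher and 13 lower relative to the library median (median 0.03), whereas against the library of the lower sum alone all 30 were higher on both scales (medians 1.55 and 0.67). Of 16 developmental genes that carry the mark in many cell types, 2 passed the filter, the cell-cycle inhibitors Cdkn2a and Cdkn2b, and neither was called on the spike-in scale. Relative to the library median Cdkn2b was called higher (2.20, adjusted p = 0.0057 in wild-type, and 1.54, adjusted p = 0.033 in HMGN1-OE cultures), and Cdkn2a had 2.01 (adjusted p = 0.30) and 1.18 (adjusted p = 0.55). On the spike-in scale Cdkn2b changed by 0.35 and 0.23 in limma (adjusted p = 0.29 and 0.52), beside -1.75 and -1.28 for the median gene. Most of its relative rise was thus the fall of the library median, and a gene that stays low in all libraries would rise likewise. These 2 are named because no other gene of the list was tested.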

How the data were processed

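RNA from counted cells was extracted with TRIzol, ERCC synthetic RNAs were added, and poly(A) libraries were made with a kit that does not keep the strand. The deposited values are FPKM per gene and library that the authors had normalized by loess to the ERCC RNAs. The paper names Bowtie, whereas the submitters' processing notes name HISAT, Cufflinks 2.0.0 and mm9, so the counting of these FPKM is uncertain and no coordinates are given. The table holds 23309 genes and 92 ERCC RNAs. Sequences came from RefSeq (GRCm38.p6) and overlaps from GENCODE vM21.

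Genes with at least 1 FPKM in 2 or more of the 12 libraries were kept (11516), and log2(FPKM + 1) was fitted in limma 3.58.1 (R 4.3.3, lmFit and eBayes with trend, 6 group means, two-sided, Benjamini-Hochberg over all genes tested, called at adjusted p under 0.05). On the spike-in scale the prior degrees of freedom were infinite, so that each standard error follows from the expression level alone, whatever the spread of that gene's own libraries. The same fit on values minus the library median used 2.87 prior degrees of freedom, and a relative change is always on this scale. Ratios of 2 genes were tested by exact permutation within genotype or time. With 2 libraries against 2 an exact test cannot go below p = 0.333. The duplicates are biological per the paper, and p-values measure the spread between libraries. On the spike-in scale that spread is pooled over all tested genes as if they varied independently, although they share shifts of whole libraries. The p-values on that scale can therefore be too small. Columns give genotype and time but no replicate number of the sample titles, so the libraries of a group are named by their sum or order of listing. Depth is unknown and whole reads could not be recovered (at the best step, 22.0% to 23.3% of low values per library lay within 0.1 of a whole multiple), so that no counting error is given.

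All 10 members were named. Of each companion list at most 3 genes were named, those called in both genotypes from 0 to 96 h with the largest mean change relative to the median gene, and for Ezh1 and Ezh2 the 5 genes of highest Pearson r. The members, the lists and the tests were chosen with earlier results of these data known. The scripts were tested on simulated data. Alternatives were other pseudocounts, filters, scalings and forms of the linear model, and each library left out in turn. The same alternatives on relative values were added after the data were seen. Figures were drawn with matplotlib 3.10.9 in Python 3.11.15.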

Additional observations from a re-analysis of the deposited data

How the results depend on the processing

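On the spike-in scale, the count of called members stayed at 0 in the 3 genotype comparisons, from 0 to 36 h and for both interactions under every alternative run. When a fit held just the compared groups' libraries, 4 members were called from 0 to 96 h in wild-type cells and 10 from 36 to 96 h in HMGN1-OE cultures (9 lower and Phf1 higher). The share of all tested genes called in those fits is not given here. Leaving out each library in turn gave 6 to 9 called members in wild-type and 2 to 7 in HMGN1-OE cultures from 0 to 96 h, and 8 to 9 and 2 to 9 from 36 to 96 h. Scaling turned some directions, since the median gene fell. In wild-type cells, centring and quantile normalization gave Ezh1 0.55 and 0.49 and Jarid2 0.59 and 0.59 from 0 to 96 h, and from 36 to 96 h Ezh1 0.62 and 0.54, Eed 0.0895 and 0.18, Jarid2 0.59 and 0.59 and Phf19 0.81 and 0.65. In HMGN1-OE cells quantile normalization gave Suz12 0.0415 from 0 to 96 h and Eed 0.0079 from 36 to 96 h. With a pseudocount of 0.1 or 0.01 in place of 1, the relative changes from 0 to 96 h gave 8 called members in wild-type and 6 in HMGN1-OE cultures, as with 1, an alternative chosen after seeing the data. Among log2 ratios, Suz12 to Eed at 96 against 0 h was -0.0542 with a pseudocount of 1, -0.0018 after quantile normalization, -0.14 in wild-type cells alone, and from -0.13 to 0.14 with a library left out, and Mtf2 to Jarid2 was -1.80 in wild-type and -1.37 in HMGN1-OE cultures alone. Between genotypes, the differences at 96 h alone were -0.41 for Ezh1 to Ezh2, -0.18 for Rbbp4 to Rbbp7, 0.34 for Suz12 to Eed, 0.48 for Mtf2 to Jarid2 and -0.81 for Phf1 to Phf19. At 36 h alone they were 0.0874 for Rbbp4 to Rbbp7 and -0.0294 for Suz12 to Eed, and at 0 h alone 0.0948 for Phf1 to Phf19. With a library left out, Phf1 to Phf19 ran from -0.60 to -0.0716 (without the 96 h wild-type library of the higher and of the lower sum), Rbbp4 to Rbbp7 ran from -0.0935 (without the wild-type 36 h library of the higher sum, exact permutation p = 0.0185) to -0.0156, and Mtf2 to Jarid2 from 0.12 to 0.25 (0.24 and exact permutation p = 0.0463 without that library). These p-values are not adjusted over the ratios, and the causes were not tested. No paired analysis was possible because the columns carry no replicate number of the sample titles: they end in 0 or 1, the titles count replicates as 1 and 2, and no source used here joins them. Depth is unknown and limits what can be said of low values, such as those of Phf1.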
